A study of Capra hircus with 24 samples.

Results

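On a 2-colour oligonucleotide array, 184 of 43653 probes (0.4215%), which stand for 134 cattle transcript accessions, read at least 5.62-fold higher in milk somatic cells than in blood cells and in milk fat globules of the same goats. Members were chosen by their values in these samples. The mean log10 ratio over the 8 milk somatic cell arrays had to exceed both other means by 0.75 or more (2.49 on the log2 scale). The probe also had to be well above background, by the scanner software's flag, on all 8 milk somatic cell arrays and on at least 1 fat globule array. Probes above background on all 8 fat globule arrays and on no blood array were left out. Of 194 probes that met these conditions, 10 belonging to 6 of 16 accessions named in the rule were dropped. How far these probes stand above the other sources is therefore fixed by the choice, and those differences are described without a test.

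The animals were 8 healthy female goats in 3rd lactation from a pair of breeds, Polish White Improved (PWI, 4 goats) and Polish Fawn Improved (PFI, 4 goats). From every animal the study took milk somatic cells (MSC), peripheral nuclear blood cells (PNCB) and milk fat globules (MFG), which makes 24 arrays in 6 groups of 4, and the labels give no treatment that separates them. Every array carried the sample in Cy5 and a common reference in Cy3, without a dye swap. The reference pooled blood nuclear cell RNA of 7 goats in 4th lactation (4 PWI and 3 PFI), so a log2 ratio of 0 is the level of that pool. The design text also speaks of samples taken after the lactation had ended, which was taken to mean the reference goats. The extraction kit for blood was not the one used for milk, so a difference of either milk source from blood cannot be told apart from one of the kits. The MFG arrays also had a scan day of their own, which cannot be told apart from the source.

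Milk somatic cells are the cells found free in milk. In ruminants they are largely leukocytes, that is macrophages, neutrophils and lymphocytes that have crossed from blood into the gland, together with some shed epithelial cells. Fat globules bud from the secretory epithelial cell wrapped in its membrane and can enclose a crescent of its cytoplasm, so RNA in them comes mainly from that cell. In such bulk samples, a change in the share of a cell type and a change in RNA per cell cannot be told apart. The probes come with cattle accessions but without gene names, and none could be added, as 0 of 26748 accessions were found in the goat gene table used here. Cell type markers could not be looked up, so the labelled sources were not checked against markers and each transcript is given by its accession. Of the 184 probes, 144 carry a curated RefSeq mRNA accession, 5 a predicted one, 15 an Ensembl transcript, 11 a sequence cluster (TC), 8 a GenBank record and 1 its own name.

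In MSC the mean log2 ratio of the 184 probes ran from 0.46 to 7.47, with a median of 3.60. The same probes had a median of 0.12 in PNCB (range of means -2.17 to 1.97) and of 0.07 in MFG (-2.82 to 4.08). The median difference was 3.35 between MSC and PNCB (10.2-fold) and 3.46 between MSC and MFG (11.0-fold). Over the 20631 probes above background on all 8 MSC arrays these medians were -0.02 and 0.15. At least a 10-fold excess over both other sources was reached by 47 probes, at least 20-fold by 10 and at least 30-fold by 2. All of these folds are on the scale of the software's ratios. With normexp background correction and loess, which adds an offset and pulls in the ratios of dim spots, the median differences were 1.96 and 1.78. The MSC mean remained above both others for 184 of 184 probes after loess, after median centring and in the Cy5 channel alone, and at least 2-fold above both for 143, 171 and 167 of them. These settings use the arrays on which the members were chosen, so the direction is largely fixed by the choice. With loess ratios 53 probes met the rule, 50 of them among the 184.

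**Figure D1:**
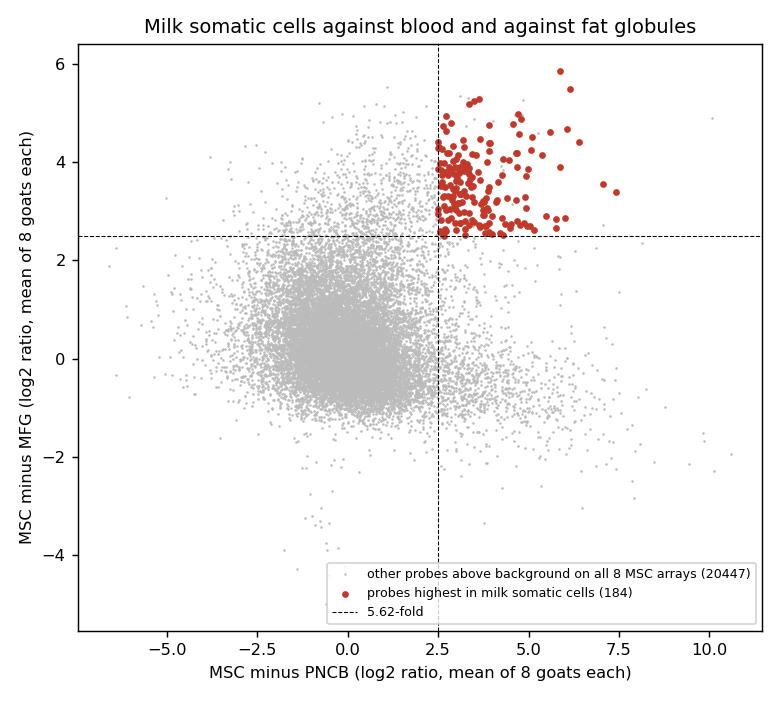
Each point is a probe above background on all 8 MSC arrays, placed by its mean MSC minus PNCB difference (horizontal axis, log2 ratio) and its mean MSC minus MFG difference (vertical axis, log2 ratio), with 8 goats per mean. The 184 chosen probes (red) lie in the corner beyond the dashed 5.62-fold lines, where grey points are probes dropped by the detection conditions or by accession, while the 1087 grey probes right of the vertical line and below the horizontal one are high in MSC against blood but not by that much against fat globules.

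Goat by goat, the MSC value was above the PNCB value of the same animal in 8 of 8 goats for 174 probes and above the MFG value in 8 of 8 goats for 162. Both held for 154 probes. The rule chose on means of these same values, so these counts are largely fixed by it. For 104 of the 184 probes all 8 MSC arrays lay above all 16 other arrays, a separation that 1.13% of the probes above background on all 8 MSC arrays showed; since the rule selected on these means, nothing is read from that contrast. The median MSC minus PNCB difference within a goat was 3.42 ± 0.79 (SD, n = 8 goats), between 2.14 in PWI goat 4 and 4.46 in PFI goat 2. The median MSC minus MFG difference was 3.52 ± 0.99 (SD, n = 8 goats). It was lowest in PWI goat 1 (2.21), where the fat globule sample read high, and highest in PFI goat 2 (4.78).

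**Figure D2:**
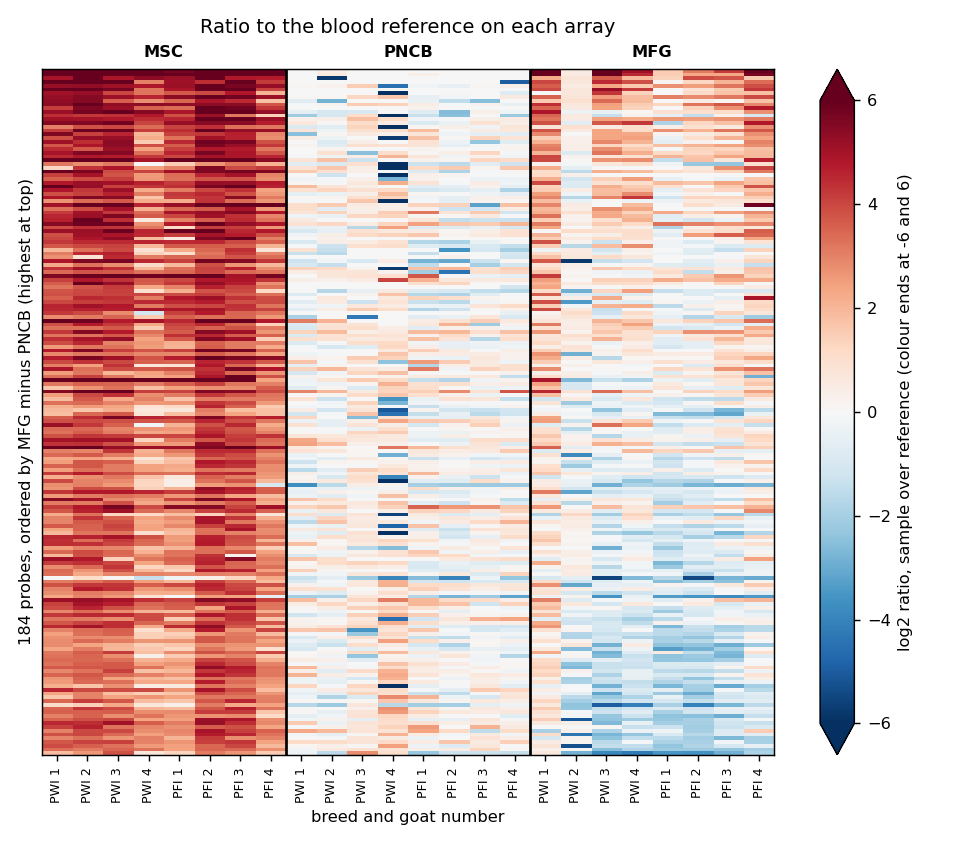
Log2 ratio to the blood reference (colour) of the 184 probes (rows, from the highest to the lowest MFG minus PNCB difference) on 24 arrays (columns, by source, breed and goat number). The MSC block is high throughout, with paler columns for PWI goat 4, PFI goat 1 and PFI goat 4; the MFG array of PWI goat 1 is the one whose median ratio is highest (1.19), and the PNCB array of PWI goat 4 holds 19 values at -4 or below, where each other array holds 4 or fewer.

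The largest excess of a single probe belonged to A_73_P064566, 1 of 4 probes for accession NM_001102322. Its log2 ratio in MSC had a lowest value of 2.37, a median of 6.23 and a highest of 6.77. In PNCB these were -1.77, 0.00 and 1.57, and in MFG -2.65, -0.47 and 4.88. PFI goat 4 gave the low MSC value while the other 7 goats lay at 6.13 or above, and the high MFG value came from PWI goat 1, so the sources overlapped. The mean in MSC, 5.88 ± 1.44 (SD, n = 8), was 58.6-fold that in PNCB and 58.3-fold that in MFG. All 4 probes of this accession were members, with an excess between 15.0- and 58.3-fold.

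Next came A_73_P447286, for the GenBank record BM435514. It read between 4.08 and 5.73 in MSC with a median of 5.19, between -3.09 and 0.51 in PNCB with a median of -1.08, and between -5.78 and 3.66 in MFG with a median of -0.32. No MSC array overlapped with the other sources, and the smaller of its 2 differences was 45.2-fold. The probe A_73_118758 of NM_174147 read 5.16 to 6.18 in MSC (median 5.44), -0.04 to 3.18 in PNCB (median 0.61) and -0.70 to 3.54 in MFG (median 0.26), again without overlap. All 3 probes of NM_174147 were members, with an excess of 13.2- to 23.9-fold. The probe A_73_102596 of XM_592701 read 4.91 to 6.40 in MSC (median 5.63), -2.62 to 0.33 in PNCB (median -0.67) and -0.46 to 4.87 in MFG (median 0.96), an 83.4-fold difference from blood and a 21.2-fold one from fat globules, so that here, unlike on A_73_118758, MFG lay above PNCB.

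**Figure D3:**
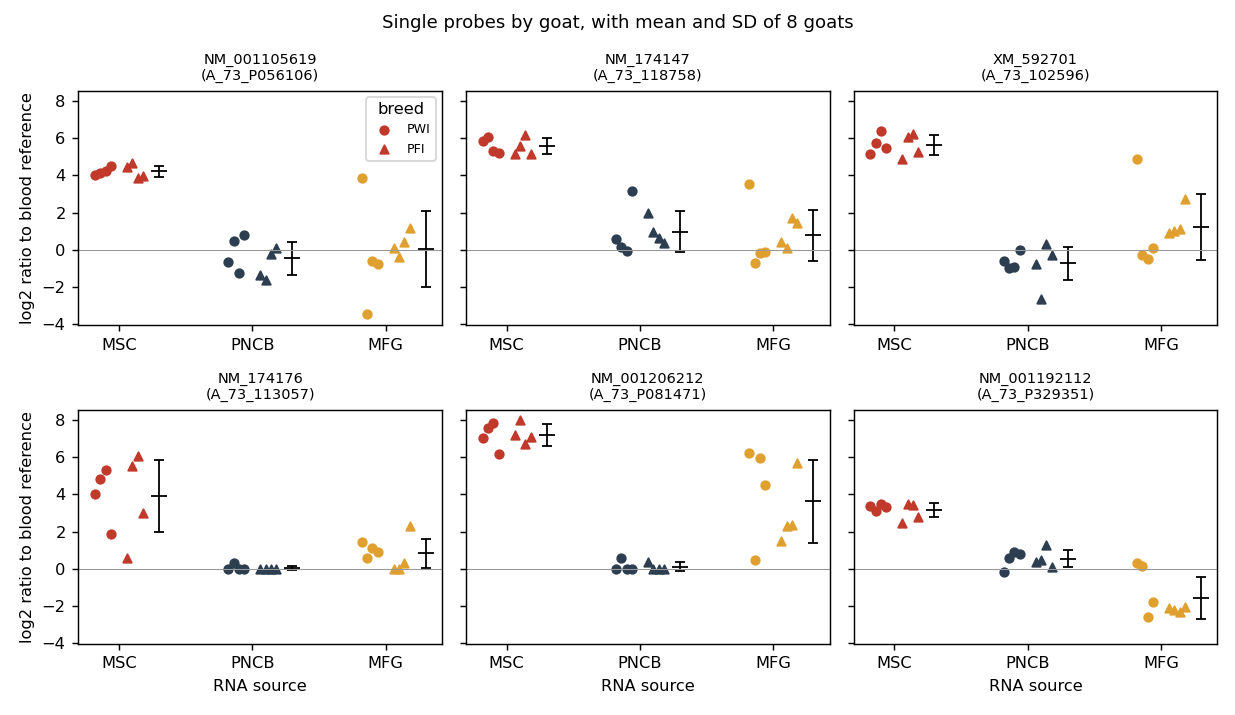
Log2 ratio to the blood reference (vertical axis) of 6 probes in MSC, PNCB and MFG (horizontal axis), with a circle for each PWI goat, a triangle for each PFI goat, and the mean with its SD over 8 goats in black. NM_001105619 stays between 3.85 and 4.70 in MSC whereas NM_174176 spans 0.56 to 6.06; NM_001206212 is the one of the 6 with the highest MFG mean (3.62), and NM_001192112 the one with the lowest (-1.58).

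Near the threshold the choice was a fine one. The members closest to it were A_73_119493 of NM_174366, with a 5.63-fold excess, and probes of NM_001024519 and NM_001007818, each with 5.64-fold. The nearest probes outside were those of NM_174733 (5.61-fold), NM_174366 (5.60-fold) and ENSBTAT00000013298 (5.59-fold). The accession NM_174366 thus has 1 probe on each side. The excess of such probes depends on the processing: for A_73_103475, the probe of NM_001024519, the difference from MFG was 2.94 by the software's ratios, 0.48 after loess and 0.14 in Cy5 alone. A threshold of 0.6 would have taken 304 probes and one of 0.9 would have taken 91.

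Several transcripts were read by more than 1 probe, and the choice did not use that agreement. A single member probe stood for 98 accessions, and the other 36 had between 2 and 5, which together make 86 probes. NM_001163778 had 5 member probes of 13 on the array, with an excess of 9.29- to 17.8-fold, and its other 8 were not above background on all MSC arrays. NM_174550 had 4 of 4, from 6.29- to 19.0-fold. In all, the member accessions had 98 further probes, in 60 accessions, that the rule did not take. Of these, 56 were above background on all 8 MSC arrays, 39 on 1 to 7 and 3 on none. The MSC mean exceeded both others in 56 of the 56 measured ones, against 24.3% of all probes above background on 8 MSC arrays, and by at least 2-fold in 50, against 5.18%. Their median differences were 2.28 from PNCB and 2.80 from MFG, and the smallest excess was 0.06 on the log2 scale, for the one other probe of NM_001206738. These further probes share the RNA, the arrays and the transcript with the members, so they check the probe design and not the animals.

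In blood, 128 of the 184 probes were above background on 8 of 8 PNCB arrays, 39 on 1 to 7 and 17 on none. Most of these transcripts were therefore measurable in circulating cells, at a lower level. Per PNCB array 139 to 159 of the 184 were above background, a larger share than the 57.5% to 65.6% of all probes. Members had to be above background on all 8 MSC arrays and all probes did not. Detection in blood is therefore not read as particular to the members. The rule also lowered the number without a blood signal, since it left out probes above background on 8 MFG arrays and no PNCB array. For the 17 without a blood signal the software's fold has no firm base, because it sets the ratio to exactly 0 where neither channel holds signal. Of the 1472 member values in PNCB, 134 (9.10%) were exactly 0, as were 46 of 1472 in MFG (3.13%) and 0 of 1472 in MSC. A limit was taken instead from the Cy5 channel after loess and Aquantile normalization. The MSC mean was set against the higher of the probe's own PNCB signal and the lowest signal well above background on each PNCB array. This limit is open to dye bias, since no dyes were swapped. By it the Cy5 signal of the 17 probes was at least 1.62-fold to at least 36.2-fold higher in MSC, with a median limit of 3.14-fold. It is a limit for that channel alone. The loess ratios, which also hold the Cy3 signal, gave a smaller fold for 17 of the 17 probes, from 1.43 to 24.4 with a median of 2.36.

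The highest limits in Cy5 among the blood-silent probes were on a pair of probes for NM_001206212. On A_73_P081471 the MSC arrays read 6.16 to 7.98 (median 7.12) while 6 of 8 PNCB arrays stood at exactly 0, and the Cy5 signal was at least 36.2-fold higher in MSC, against 24.4-fold by loess ratios. For its sister probe A_73_P081476 the values were at least 34-fold and 20.7-fold. The third member probe, A_73_P304881, had a Cy5 limit of at least 4.14-fold. The MFG values of A_73_P081471 ran from 0.48 to 6.22 with a median of 3.42, so the highest fat globule sample overlapped the lowest milk cell sample. The probe A_73_116592 of XM_589840 was at least 6.21-fold higher in MSC than in PNCB by the Cy5 limit and 4.86-fold by loess ratios. It was above background on 7 of 8 MFG arrays, as were A_73_P081471 and A_73_P081476.

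The place of the fat globules differed between members. MFG was the nearer source for 84 probes and PNCB for 100. MFG lay at least 2-fold above PNCB for 35 probes, at least 2-fold below for 27 and within 2-fold for 122, and the median difference was -0.08, beside -0.30 over all probes above background on 8 MSC arrays. The rule shaped these counts, since it left out probes above background on 8 MFG arrays and no PNCB array. The counts also depend on the scaling. They were 10 above and 8 below after loess, and 5 above and 46 below after median centring. They also depend on 1 animal, since without the MFG array of PWI goat 1 they were 31 above and 41 below. Of the 35 probes above, 10 had no blood signal, so their difference has no firm base. Over the 128 probes seen on all PNCB arrays 17 were above and 26 below. Among the low ones was A_73_P329351, for NM_001192112. Its MFG values ran from -2.57 to 0.30 with a median of -2.10, its PNCB values from -0.16 to 1.27 and its MSC values from 2.43 to 3.48. It was above background on 2 of 8 MFG arrays, and its MFG minus PNCB difference of -2.11 was -0.21 after loess.

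Detection in fat globules was uneven, and the rule rested on it. On all 8 MFG arrays 59 probes were above background, and the same number were above background on all 24 arrays. The number of the 184 above background per MFG array was 138, 158, 110 and 158 in PWI goats 1 to 4 and 76, 86, 106 and 121 in PFI goats 1 to 4. The arrays of PWI goats 2 and 4 had 84.6% and 75.3% of all 43653 probes above background, against 44.1% to 51.5% on the other 6 MFG arrays, and 32 members were above background in MFG on these arrays and no others. With both arrays left out, 134 members met the rule. The members' median ratio in MFG was 1.19, 0.15, -0.28 and 0.10 in PWI goats 1 to 4 and -0.56, -0.51, 0.01 and 0.66 in PFI goats 1 to 4. PWI goat 1 gave the highest MFG value of the 8 goats for 98 of the 184 probes and PFI goat 4 for 35. On the array of PWI goat 1, 37 members (20.1%) exceeded each other MFG array at least 2-fold, beside 0.892% of all probes above background on 8 MSC arrays. The rule asked members for a low MFG mean but signal on at least 1 MFG array, and the other probes met no such condition. Nothing is therefore read from that contrast. The members' median deviation from their MFG means on this array was 1.30, and 0.37 after loess.

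Between goats these probes varied more in MSC than the probes above background there at large. The median SD over 8 goats in MSC was 0.81 on the log2 scale for the 184 probes, 0.42 for all probes above background there, and 0.69 for the 1087 probes that were at least 5.62-fold above PNCB but less than that above MFG. After loess the 3 medians were 0.63, 0.24 and 0.39, and in the Cy5 channel alone 0.72, 0.25 and 0.49. A wide spread was not particular to MSC by the software's ratios, where the members' median SD was 0.87 in PNCB and 1.12 in MFG. After loess it was 0.35 in PNCB and 0.40 in MFG, below that in MSC. The offset used before loess pulls in the ratios of dim spots, and many members were dim in PNCB or MFG. The part of this in the lower SD was not tested. The median ratio of the 184 probes in MSC was 3.71, 4.02, 3.99 and 2.65 in PWI goats 1 to 4 and 3.05, 4.47, 4.12 and 3.04 in PFI goats 1 to 4. High and low animals occurred in both breeds. PWI goat 4 had the lowest MSC value of the 8 for 77 probes, PFI goat 4 for 49 and PFI goat 1 for 39. PFI goat 2 had the highest for 87, PWI goat 2 for 31, PWI goat 3 for 29 and PFI goat 3 for 24.

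The probes largely shared this order of goats. Of the 184, 126 had a correlation above 0.7 with the members' median profile over the 8 MSC arrays and 5 had one below 0, with a median of 0.79. Pairs of member probes for 1 accession had a median correlation of 0.82 over these arrays (69 pairs), and pairs of different accessions one of 0.58, above 0 in 91.7% of pairs. These values share the arrays and their brightness and are a description. The largest axis of variation between goats carried 70.1% of the variance of the members after loess, 57.2% for all probes above background in MSC and 55.5% for the 1087.

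**Figure D4:**
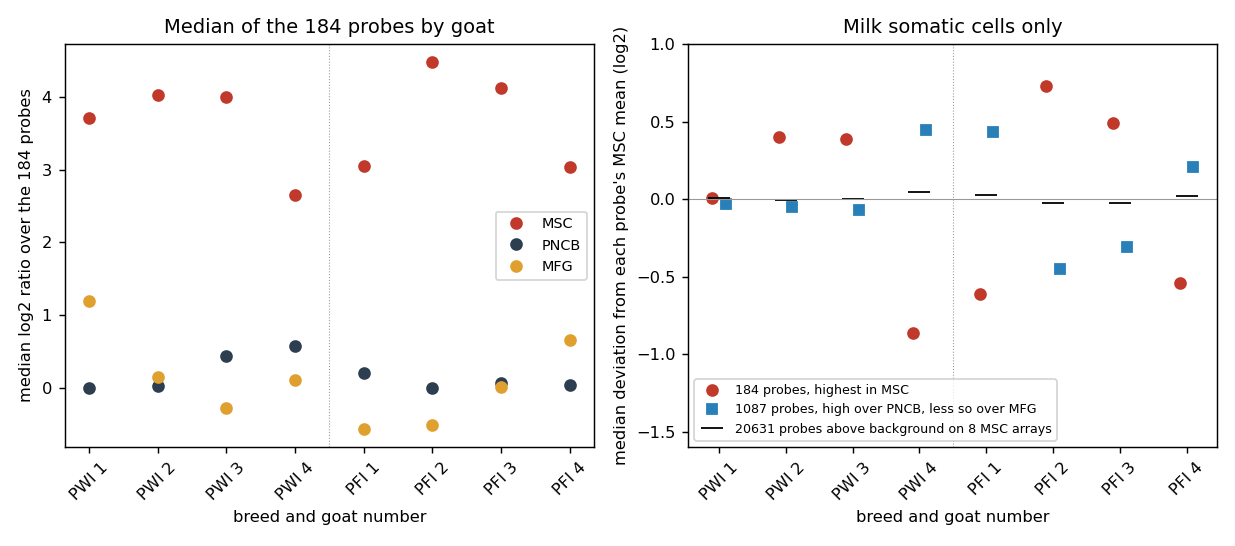
Left, the median log2 ratio of the 184 probes in each goat (horizontal axis) for MSC, PNCB and MFG. Right, in MSC, the median deviation from each probe's own mean over 8 goats (log2) for the 184 probes, for the 1087 probes that pass the threshold against PNCB but not against MFG, and for all 20631 probes above background there; PWI goat 4, PFI goat 1 and PFI goat 4 lie below 0 for the first set and above 0 for the second.

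The 1087 probes that passed the threshold against PNCB but not against MFG moved the other way between the same animals. The median deviation of the 184 probes from their own MSC means was 0.00, 0.40, 0.39 and -0.86 in PWI goats 1 to 4 and -0.61, 0.73, 0.49 and -0.54 in PFI goats 1 to 4. For the 1087 probes it was -0.03, -0.05, -0.07 and 0.45 in PWI goats 1 to 4, and 0.43, -0.45, -0.31 and 0.21 in PFI goats 1 to 4. The goats that were low for one set were thus the high ones for the other, and over all probes above background in MSC the deviation stayed between -0.03 and 0.04. After loess the members' values were 0.00, 0.36, 0.20 and -0.67 in PWI and -0.47, 0.57, 0.52 and -0.53 in PFI. Array brightness moved along with the members. The median net Cy5 signal was 18.5, 20 and 23.0 on the MSC arrays of PWI goat 4, PFI goat 1 and PFI goat 4, against 25.0 to 35.0 on the other 5. The share of all probes above background was 51.2%, 51.5% and 54.5% on those 3 arrays, against 56.3% to 60.9%. The part of brightness in the spread between goats was not tested.

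The goat order in MSC was not that in the other sources. PWI goat 1, in the middle of the MSC range, had the highest MFG median, and PFI goat 2, highest in MSC, had the second lowest MFG median. In PNCB the medians were 0.00, 0.02, 0.44 and 0.57 in PWI goats and 0.21, -0.00, 0.06 and 0.04 in PFI goats. Members silent in blood spread more between goats in MSC (median SD 1.15) than members seen on 1 to 7 PNCB arrays (1.08) or on 8 (0.74). After loess the medians were 0.77, 0.56 and 0.65, so the spread did not follow the number of PNCB arrays with signal.

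Some members held almost still between goats. The probe A_73_P056106 of NM_001105619 read 4.03, 4.13, 4.22 and 4.53 in the MSC of PWI goats 1 to 4 and 4.46, 4.70, 3.85 and 3.96 in PFI goats 1 to 4, an SD of 0.30. The other member probe of that accession, A_73_P031306, had an SD of 0.27. In contrast A_73_113057 of NM_174176 read 4.01, 4.84, 5.31 and 1.89 in PWI goats and 0.56, 5.53, 6.06 and 3.00 in PFI goats, an SD of 1.93. It was above background on no PNCB array and 1 MFG array, and MSC was above PNCB by at least 2.72-fold in Cy5 and by 2.29-fold in loess ratios. The goats low on this probe were the ones low for the members at large, while NM_001105619 on A_73_P056106 had a correlation of -0.08 with the members' median profile.

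The probes outside the set with the most similar profile over all 24 arrays to the members' median were A_73_116442 of NM_001100349 (r = 0.970), A_73_120842 of NM_001046412 (r = 0.967) and A_73_P086501 of ENSBTAT00000002429 (r = 0.958). Each exceeded both other sources by more than the threshold and was left out because it was above background on 0 of 8 MFG arrays. Members themselves correlated with that median profile at 0.567 to 0.974 over the 24 arrays, with a median of 0.883. Each member was chosen for reading higher in MSC on these arrays and is part of that median. Its correlation is therefore largely fixed by the choice.

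The reference channel held the same pool on every array, and its signal was compared between sources in the same way. In Cy3 alone the members' median difference was 0.05 between MSC and PNCB and 0.08 between MSC and MFG, and it reached 1 in size for 2 probes and 1 probe. The highest Cy3 differences were 2.21 from PNCB and 2.38 from MFG. Only 19 of the 184 members had Cy3 above background on all 24 arrays, so the Cy3 differences of the others rest partly on dim spots. In Cy5 alone the medians were 2.34 and 2.16. The rule chose members by their ratios, so nothing is read from the contrast of the channels.

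The study asked whether the breeds differ. The choice of members used means over both breeds and detection on all 8 MSC arrays, and so treated the breeds alike in MSC. It was not free of breed in MFG, because 32 members were detected there on arrays of PWI goats 2 and 4 alone. The comparison was fitted with limma on loess ratios over all tested probes, 4 PWI against 4 PFI goats, with p-values adjusted over all of them by the Benjamini-Hochberg method and a threshold of 0.05. In MSC 0 of the 184 members passed, as did 0% of the 27382 probes tested. At an unadjusted p under 0.05 there were 0 members, beside 4.38% of all tested. That count was not stable: over the other settings it ran from 0 to 19, the highest with the goat number as a block, and was 12 without PFI goat 1 and 9 without PWI goat 4. No share of all tested probes is given for those settings, so their counts are not read as particular to the members. The median PWI minus PFI difference of the members was -0.06, with 78 probes higher in PWI and 106 lower. The member with the lowest p in MSC was A_73_P049126 of NM_182786, whose loess ratio was 2.77 ± 0.24 (SD, n = 4) in PWI and 3.48 ± 0.80 (SD, n = 3) in PFI, where 1 flagged spot was left out. The groups differed by -0.71 with a limma 95% interval from -1.51 to 0.09 and an adjusted p of 0.988.

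**Figure D5:**
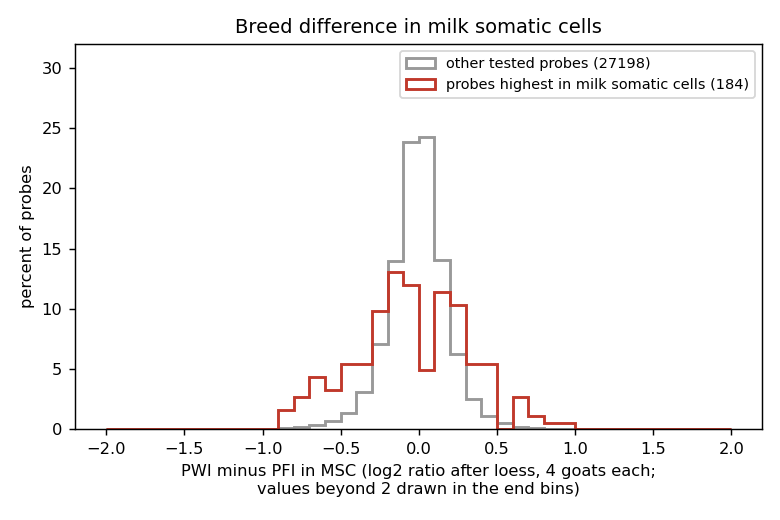
Distribution (percent of probes) of the PWI minus PFI difference in MSC, on the scale of loess log2 ratios, for the 184 probes (red) and the other tested probes (grey), 4 goats per breed. The members spread more widely around 0 than the rest, and their median is -0.06.

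The absence of calls does not show that the breeds are alike. The limma 95% interval of the breed difference in MSC lay within 2-fold in both directions for 66 of the 184 members (35.9%), compared with 92.3% of all tested probes, and its median half-width was 0.91 for the members and 0.32 for all. With 4 goats per breed, p-values measure the spread between these goats, and as each group lay on its own slide, breed and slide cannot be told apart within a source.

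In PNCB 0 of 184 members passed, beside 0.011% of all tested probes. At an unadjusted p under 0.05 there were 9, of which 6 were higher in PWI, or 4.89% of members beside 3.53% of all, and other settings gave 3 to 20. In MFG 0 of 183 members passed (0.0146% of all), and 9 had an unadjusted p under 0.05 (4.92% beside 8.59%), 7 of them higher in PWI. Other settings gave 1 to 40 such members: 40 when PWI goat 1 was left out and 23 when PWI goat 2 was. For the other settings, in PNCB and in MFG, no share of all tested probes is given. Whether the members or all probes moved cannot be told from these counts. Of the 151 tested members detected in MFG beyond the arrays of PWI goats 2 and 4, 7 had an unadjusted p under 0.05 and 0 passed. Without PWI goat 2, whose MFG array had the most probes above background, 2 members passed in MFG. These were A_73_115425 of NM_174031, higher in PWI by 2.18 with an adjusted p of 0.0272 (limma), and A_73_119412 of NM_174744, higher by 2.04 with an adjusted p of 0.0346 (limma). With all goats their differences were 1.38 and 1.15, with limma adjusted p-values of 0.543 and 0.547. A_73_115425 had no loess value in the MFG of PFI goat 4. Its loess ratio in MFG was -1.33 in PWI goat 2 and 1.28 to 2.26 in the other 3 PWI goats, against -0.43 to -0.13 in PFI goats 1 to 3. On A_73_119412 the loess ratio in MFG was -2.24 in PWI goat 2 and 0.85 to 2.08 in the other 3 PWI goats, against -0.88 to -0.56 in the PFI goats. PWI goat 2 stood below all 4 PFI goats there, and the other 3 PWI goats above them. The share of all tested probes that passed without PWI goat 2 is not given. The 2 calls are therefore not read as particular to the members.

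Over all 3 sources, with 1 mean per goat, 0 of 180 members passed, beside 0.0037% of all tested probes. An unadjusted p under 0.05 was reached by 18, of which 14 were higher in PWI, beside 6.23% of all tested, and other settings gave 7 to 28. All 18 were among the 148 members tested that were detected in MFG beyond those arrays. The interaction of breed and source, which asks whether the breed difference varies between sources, passed for 0 of 183 members (0.011% of all) and had an unadjusted p under 0.05 for 1, or 0.546%, beside 6.22% of all. Other settings gave 0 to 10. For the counts under other settings, here and over all sources, no share of all tested probes is given. The main interaction fit held no goat term, so it treated the 3 samples of a goat as independent. With a goat term, on members with values on all arrays, 0 passed and 0 had an unadjusted p under 0.05. In the 5 fits the lowest adjusted p of any member was 0.988 in MSC, 0.973 in PNCB, 0.539 in MFG, 0.682 over all sources and 0.758 for the interaction.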

How the data were processed

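Per the submitters' processing notes, arrays were read with Agilent Feature Extraction 10.7.3.1. The deposited scanner files give, for Cy5 and Cy3, the intensity of each spot and of its local background. The authors' deposited values are log10 ratios of Cy5 over Cy3, equal to the software's own log ratio (largest difference 0), which is background-subtracted and dye-normalized per the file headers. Those deposited log10 ratios were averaged over spots of a probe and used as log2 values for choosing and describing members. The array was designed for cattle, so a probe that differs from the goat sequence can read low. Its 45220 spots include 43803 that are not controls, which make 43653 probes, and 0 spots were saturated.

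Breed tests used intensity corrected with normexp (offset 50) without outlier-flagged spots, then loess within arrays, lmFit and eBayes (R 4.3.3, limma 3.58.1), on probes whose Cy5 signal was above background throughout at least 1 of the 6 groups (4 arrays each). The procedure was tested on simulated data. Members, lists and tests were chosen with earlier results of these data known. The gene lists and cell type markers laid down for the analysis could not be run, since no probe could be named. Probes named in the text are those with the largest excess (1 probe per accession), those nearest the threshold, accessions with several member probes, extremes of SD and of MFG minus PNCB, the lowest p for breed, and the most similar non-members. The highest single probe and the members that passed without 1 goat were added after their values were seen. Goats carry 1 number in all sources, but across breeds a number is the slide position. Alternatives were median centring, Cy5 alone, loess or flag-free ratios for the rule, other thresholds, no filter, flagged spots kept, a replicate block, and each goat left out. The number of arrays limits the precision.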

Additional observations from a re-analysis of the deposited data

Results flagged for a closer look

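Over 84 groups of 4 samples, 6 samples lay far from the rest of their group; about 4.2 would do so by chance. In MSC, PWI goat 4 had a median deviation of 0.45 for the 1087 probes at least 5.62-fold above PNCB but less than that above MFG, against -0.07 to -0.03 in the other PWI goats. The PNCB array of PWI goat 4 had a median net Cy5 signal of 28.0, against 53.5 to 58.0. The probe A_73_P037286 of NM_001112708 read -3.22 in the PNCB of PFI goat 3, against 1.39 to 1.77. In MFG, PWI goat 1 read 3.54 on A_73_118758 of NM_174147, against -0.70 to -0.10. The same array read 4.87 on A_73_102596 of XM_592701, against -0.46 to 0.10. On that probe PFI goat 4 read 2.75 in MFG, against 0.91 to 1.11. The array brightness that goes with some of these values was given with the results, and its part was not tested.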

How the results depend on the processing

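The number of members was 53 with loess ratios (50 of them among the 184), 304 at a threshold of 0.6, 91 at 0.9 and 172 without flagged spots, and between 145 and 233 with 1 goat left out (lowest without PWI goat 2, highest without PWI goat 4). Among alternatives chosen after seeing the data, it was 134 without the MFG arrays of PWI goats 2 and 4 and 188 without the PNCB array of PWI goat 4. The median MSC minus PNCB difference was 1.96 with loess, 2.37 with median centring and 2.34 in Cy5 alone, and the median MSC minus MFG difference was 1.78 with loess and 2.16 in Cy5 alone. The cause was not tested. For 27 named members, 162 of 162 source differences under other settings kept their direction, which the choice of members largely fixes, and 59 moved by more than the SD over goats. Of 65 breed settings, 1 called any member: leaving out PWI goat 2 in MFG gave 2, so the range with 1 goat left out was 0 to 2. With the replicate block 0 members were called in each breed fit, and in MSC 19 of the 143 members with values on all arrays had an unadjusted p under 0.05. Shares of all tested probes are not given for breed settings other than the main one. Their counts are therefore not read as particular to the members. The block was the goat number, except in the interaction fit, where it was the goat. Deviations of same-numbered goats of the 2 breeds correlated at -0.173, 0.451, 0.332 and 0.589 in MSC (numbers 1 to 4), -0.522 to 0.086 in PNCB and -0.009 to 0.138 in MFG, and 1 of 8 MSC samples correlated best with its own number. The number is the slide position, and it was not taken to pair the goats. In 37 settings of 3 named breed differences in MSC, 0 passed 0.05 and 0 reversed. Dim spots limit the folds. In PNCB 17 members had no signal and in MFG 125 had it on 1 to 7 arrays. The Cy3 signal of member spots was above background in 52.1% of cases on MSC arrays, 42.5% on PNCB arrays and 71.5% on MFG arrays.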
